A study of Mus musculus with 10 samples.

Results

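The results concern 10 genes that set the start of cell division, chosen by name from the deposited table of 23337 genes. They are the D-type cyclins Ccnd1, Ccnd2 and Ccnd3, the kinases Cdk4 and Cdk6 that they activate, the inhibitors Cdkn1a, Cdkn1b and Cdkn2c, the retinoblastoma gene Rb1, and the homeobox gene Meis1. Messenger RNA was measured by RNA-seq in sorted heart muscle cells (cardiomyocytes) of 10 mice at postnatal day 14. Each mouse had received AAV9-cTNT-Cre on postnatal day 1 at 360000000 viral genomes per gram (vg/g), an adeno-associated virus that expresses the recombinase Cre from a cardiac troponin T promoter. The knockout group (Actn2 F/F) had 2 floxed alleles of Actn2, the gene of the sarcomere crosslinker alpha-actinin-2, and the control group (Actn2 F/+) had 1 floxed and 1 normal allele, with 5 animals in each. The controls are therefore Cre-treated heterozygotes, and no untreated or wild-type animal enters the comparison. The labels do not say which fluorescent marker was used for the sort.

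D-type cyclins bind the kinases CDK4 and CDK6, and the complexes phosphorylate the retinoblastoma protein, which then releases E2F factors that switch on genes for DNA synthesis. INK4 inhibitors such as p18 (Cdkn2c) bind the kinases themselves, and CIP/KIP inhibitors such as p21 (Cdkn1a) and p27 (Cdkn1b) bind complexes of cyclin and kinase. Mouse cardiomyocytes leave the cell cycle in the days after birth, and the transcription factor MEIS1 is known for promoting that exit. Cdkn1a is also a classical target gene of p53.

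Of the 10 genes, 3 passed the test and 7 did not. Cdk6 fell to 0.411 of the heterozygote level, Cdkn1a rose 1.997-fold, and Ccnd3 rose 1.37-fold. All 10 passed the filter on low counts, with 45 to 5795 reads per gene and animal. Over the whole table, 18.9% of the 11870 tested genes were called at an adjusted p below 0.05 (10.2% higher and 8.64% lower in the knockout), so 3 calls in 10 genes is not set apart from that background by its number. The calls over all genes were 54.3% higher with TMM scaling and 68.9% higher with library totals alone. The groups did not overlap for 2 of the 10 genes, Ccnd3 (higher) and Cdk6 (lower), against 14.7% of all tested genes (8.41% higher and 6.32% lower). In these sorted-cell samples, fewer cells of a type and less RNA per cell cannot be told apart.

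**Figure D1:**
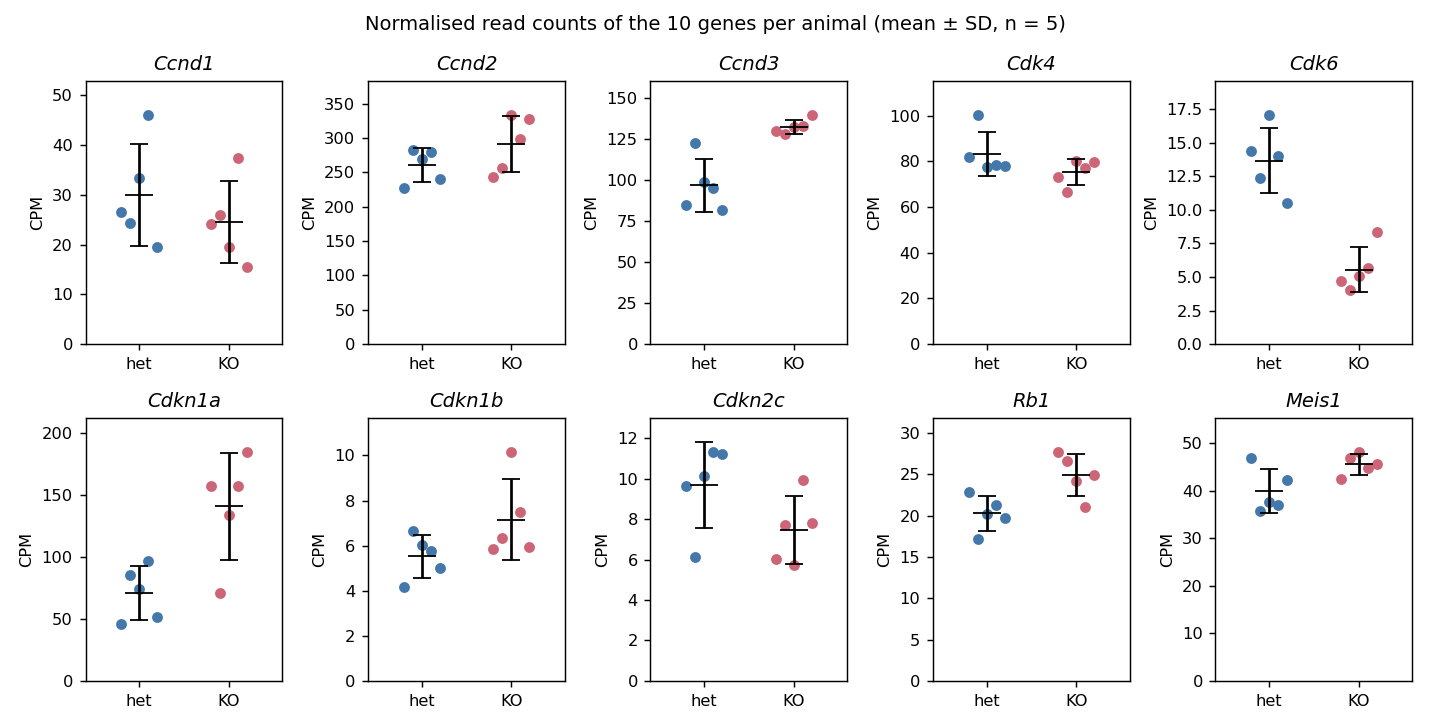
Normalised read counts in CPM (vertical axes, from 0) of the 10 genes in 5 heterozygote (het, blue) and 5 knockout (KO, red) animals; each point is 1 animal, and bars give the mean ± SD. Cdk6 runs from 4.05 to 8.32 CPM in knockouts and from 10.5 to 17.04 in heterozygotes, while most other genes overlap between the groups.

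The promoters of the 3 genes that changed are shown because these genes carry the results, and because Cdkn1a is read beside other p53 targets. They were taken from RefSeq (GRCm38.p6, the same coordinates as mm10), each with 250 bases before the start site and 50 after it. That table held entries for 7 of the 10 genes; Ccnd1, Ccnd2 and Rb1 had none. Capitals mark matches, on either strand, to any of these motifs: the GC box GGGCGG, the E2F sites TTTCCCGC and TTTGGCGC, the TATA box TATAAA, the CCAAT box CCAAT, the MEIS site TGACAG, the CArG box of serum response factor, and the decamer bound by p53.
Ccnd3, chr17:47504801-47505100, plus strand: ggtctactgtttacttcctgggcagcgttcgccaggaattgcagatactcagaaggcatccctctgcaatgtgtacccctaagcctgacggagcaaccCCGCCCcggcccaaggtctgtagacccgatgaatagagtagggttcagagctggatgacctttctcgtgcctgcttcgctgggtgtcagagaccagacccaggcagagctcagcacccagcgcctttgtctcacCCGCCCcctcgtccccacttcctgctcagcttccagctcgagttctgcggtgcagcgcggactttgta
Cdk6, chr5:3343643-3343942, plus strand: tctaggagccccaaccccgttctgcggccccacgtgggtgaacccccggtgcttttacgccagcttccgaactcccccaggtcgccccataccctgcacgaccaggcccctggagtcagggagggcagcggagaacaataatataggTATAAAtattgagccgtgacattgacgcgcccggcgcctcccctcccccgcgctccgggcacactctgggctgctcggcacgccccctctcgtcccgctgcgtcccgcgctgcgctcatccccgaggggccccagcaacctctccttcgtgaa
Cdkn1a, upstream start, chr17:29090729-29091028, plus strand: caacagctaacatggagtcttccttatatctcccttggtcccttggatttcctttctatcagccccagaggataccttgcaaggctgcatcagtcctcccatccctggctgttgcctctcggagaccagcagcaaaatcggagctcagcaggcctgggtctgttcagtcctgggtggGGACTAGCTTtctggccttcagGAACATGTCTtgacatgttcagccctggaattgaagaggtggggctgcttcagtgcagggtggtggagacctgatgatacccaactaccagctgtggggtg
Cdkn1a, downstream start, chr17:29093519-29093818, plus strand: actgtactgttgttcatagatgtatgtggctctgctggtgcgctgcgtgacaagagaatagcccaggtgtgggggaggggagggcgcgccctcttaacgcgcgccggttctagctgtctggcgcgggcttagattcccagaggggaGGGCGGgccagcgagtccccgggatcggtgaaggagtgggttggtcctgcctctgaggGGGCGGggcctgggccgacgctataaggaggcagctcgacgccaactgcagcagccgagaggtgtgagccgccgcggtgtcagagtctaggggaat
The capitals in Ccnd3 are 2 GC boxes (CCGCCC on the printed strand), and those in Cdk6 are 1 TATA box, at positions -103 to -98 from the start site. That RefSeq start site of Cdk6 lies at -419 bases from the start of the counted gene. The capitals at the downstream start of Cdkn1a are 2 GC boxes. At the upstream start of Cdkn1a they are 2 matches to the p53 decamer, at positions -73 to -64 and -51 to -42 from the start site. Among 32851 RefSeq promoters of the same length, 35.7% held a GC box, 13.6% a TATA box and 8.36% a p53 decamer, and 0.359% held 2 or more p53 decamers. The share with 2 or more was computed for the p53 decamer alone, so the pairs of GC boxes have no like share beside them. The E2F forms were found in 1.07% and 0.514% of all promoters, CCAAT in 37.4%, TGACAG in 19.2% and the CArG box in 1.63%. Neither E2F form and no CArG box occurred in any of the 10 promoters of the 7 genes with an entry. A match describes letters in this window only. Ccnd3 has a second RefSeq start, 88416 bases downstream, whose promoter is not printed. That promoter held 2 GC boxes, 1 CCAAT box and 1 MEIS site (CTGTCA on the plus strand). The counts per gene do not separate starts.

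The genotype was checked first. CPM is the normalised read count, scaled to the TMM-adjusted total of the tested genes. Actn2 was at 3366, 3454, 3474, 2930 and 2677 CPM in heterozygotes 1 to 5. In knockouts 1 to 5 it was at 1286, 1250, 1145, 1182 and 1220 CPM. Every knockout animal lay below every heterozygote, with a ratio of 0.383 (log2 -1.39, edgeR adjusted p 3.48e-07). The summed level of 10 cardiomyocyte markers ranged from 96630 to 121700 CPM over knockouts and from 102100 to 125000 over heterozygotes. Of these 10 markers 9 had lower estimates in the knockout. Tnni3 was the 1 called, lower, from 6811 to 4717 CPM without overlap (edgeR adjusted p 0.00165). The 12 endothelial markers summed to 503 to 900 CPM over knockouts and 783 to 1400 CPM over heterozygotes. All 12 endothelial markers had lower estimates in the knockout, and 2 of them were called. Fibroblast markers (8) summed to 273 to 594 and 297 to 492 CPM, mural cell markers (7) to 539 to 695 and 473 to 698 CPM, and the 7 immune markers in the table to 8.71 to 11.8 and 13.3 to 39.0 CPM. Of the 7 mural markers 6 had lower estimates in the knockout, none of them called, and Cspg4 was called higher (37.0 to 132 CPM). All 5 tested immune markers had lower estimates, and Csf1r was called. Over all tested genes 18.9% were called (10.2% higher and 8.64% lower), so the calls on these short marker lists are not set apart by their number. At an unadjusted edgeR p below 0.05 were 10 of 12 endothelial markers, against 3841 of all 11870 tested genes. The other lists had 1 of 7 fibroblast, 1 of 7 mural, 3 of 5 immune and 2 of 10 cardiomyocyte markers below it. No marker on these lists was at 0 in every animal. Endothelial level was examined as a covariate. Its score (mean log2 CPM) ran from 5.08 to 5.87 in knockouts and from 5.68 to 6.49 in heterozygotes. Since the score itself ran lower in the knockout group, fits with it do not separate endothelial level from genotype. The part of the fibroblast, mural and immune markers in the results was not tested. Total counts ran from 8086656 to 25237696 per animal, so that 3 reads correspond to 0.119 to 0.371 CPM on these totals, before TMM scaling.

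Among the cyclins, Ccnd3 (cyclin D3) was at 85.0, 123, 98.7, 95.4 and 82.2 CPM in heterozygotes 1 to 5. In knockouts 1 to 5 it was at 130, 128, 132, 133 and 140 CPM. The knockout animals lay close together and all above the highest heterozygote, replicate 2. Knockouts averaged 132.7 ± 4.31 CPM and heterozygotes 96.8 ± 16.2 (SD, n = 5). On the log2 scale the difference was 0.46 ± 0.108 (SE; edgeR adjusted p 0.00889), with a 95% interval of 1.17 to 1.61-fold. With the mean level of the endothelial markers as a covariate, the estimate was 0.45 and the adjusted p 0.0760, so the call was lost while the size was not. Ccnd3 lies on chromosome 17 at 47505051 to 47599688 (mm10, plus strand) and shares 358 exon bases with Bysl. Reads in that stretch are counted for neither gene, and Bysl itself was at 48.9 ± 10.6 CPM in the heterozygote and 51.7 ± 4.97 in the knockout (SD, n = 5; edgeR adjusted p 0.744).

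Ccnd2 (cyclin D2; chromosome 6, 127125709 to 127151048, minus strand) had the most reads of the 10 genes. Its values were 227, 283, 270, 280 and 241 CPM in heterozygotes 1 to 5 and 244, 256, 333, 298 and 328 CPM in knockouts 1 to 5. Knockouts 3, 4 and 5 lay above all heterozygotes and knockouts 1 and 2 lay among them. The ratio of knockout to heterozygote was 1.12 with a 95% interval of 0.954 to 1.32 (edgeR adjusted p 0.323).

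Ccnd1 (cyclin D1; chromosome 7, 144929931 to 144939925, minus strand) was the most variable cyclin, at 26.6, 24.3, 33.3, 46.0 and 19.5 CPM in heterozygotes 1 to 5 and 24.2, 26.0, 19.6, 37.4 and 15.5 CPM in knockouts 1 to 5. The groups overlapped, with a ratio of 0.818 and a 95% interval of 0.570 to 1.17 (edgeR adjusted p 0.448). The animals high and low in Ccnd1 were those high and low in endothelial markers. Heterozygote 4 and knockout 4 had the highest Ccnd1 and the highest endothelial score of their groups (6.49 and 5.87, mean log2 CPM), and heterozygote 5 and knockout 5 had the lowest of each (5.68 and 5.08). In the knockout group the order of the 5 animals was the same for both measures. With the endothelial score as a covariate the estimate for Ccnd1 changed sign, from -0.29 to 0.41 on the log2 scale, and was not called (edgeR adjusted p 0.0849). The score itself ran lower in the knockout group, so this fit does not separate endothelial level from genotype.

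**Figure D2:**
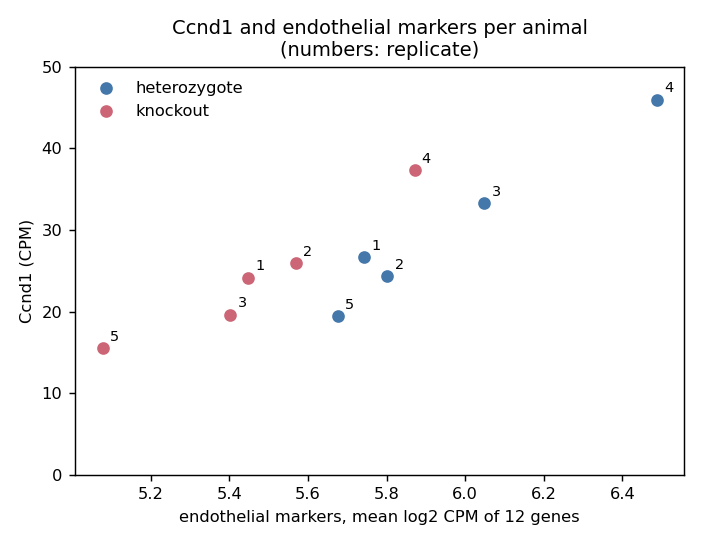
Ccnd1 in CPM (vertical axis) against the mean log2 CPM of 12 endothelial marker genes (horizontal axis), 1 point per animal with its replicate number, heterozygotes in blue and knockouts in red. Replicate 4 has the highest and replicate 5 the lowest value on both axes within each group.

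Because the cyclins differ in length, their balance was read from counts divided by exonic length. The length of Ccnd3 includes the 358 bases shared with Bysl, where reads are not counted. Its level and share per length are therefore understated, and the order of Ccnd2 and Ccnd3 is not settled. Ccnd3 made up 44.6% ± 3.11 of the summed per-length level of the 3 cyclins in the heterozygote and 50.9% ± 2.52 in the knockout (SD, n = 5). Ccnd2 made up 47.2% ± 1.97 and 43.5% ± 3.32, and Ccnd1 8.19% ± 2.39 and 5.62% ± 1.89. The ranges of all 3 shares overlapped between the groups, and the shares are given as a description without a test.

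Of the kinases, Cdk6 fell and Cdk4 was not called. Cdk6 (chromosome 5, 3344312 to 3522225, plus strand) was at 14.4, 12.4, 17.04, 14.0 and 10.5 CPM in heterozygotes 1 to 5. In knockouts 1 to 5 it was at 4.69, 4.05, 5.07, 5.64 and 8.32 CPM, from 45, 53, 52, 55 and 147 reads. Every knockout lay below every heterozygote, and knockout 5 came closest to them. Knockouts averaged 5.55 ± 1.65 CPM and heterozygotes 13.7 ± 2.42 (SD, n = 5). The log2 difference was -1.28 ± 0.204 (SE; edgeR adjusted p 0.000599), with a 95% interval of 0.303 to 0.556 for the ratio. Cdk6 was called in each of the 10 leave-one-animal-out fits (-1.49 to -1.19) and with the endothelial covariate (-1.38, adjusted p 0.00768).

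Cdk4 (chromosome 10, 127063603 to 127067282, plus strand) was at 81.9, 100.1, 77.5, 78.6 and 78.0 CPM in heterozygotes 1 to 5 and 73.0, 66.5, 80.0, 76.9 and 79.7 CPM in knockouts 1 to 5. Heterozygote 2 stood above the other 9 animals, which lay together. The ratio was 0.904 with a 95% interval of 0.783 to 1.04 (edgeR adjusted p 0.324). Cdk6 accordingly made up 8.29% ± 1.75 of the per-length level of the pair in the heterozygote and 3.83% ± 0.899 in the knockout (SD, n = 5). These shares ran from 6.33% to 10.7% and from 3.21% to 5.38% and did not overlap, and the pair was chosen after its values were seen.

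**Figure D3:**
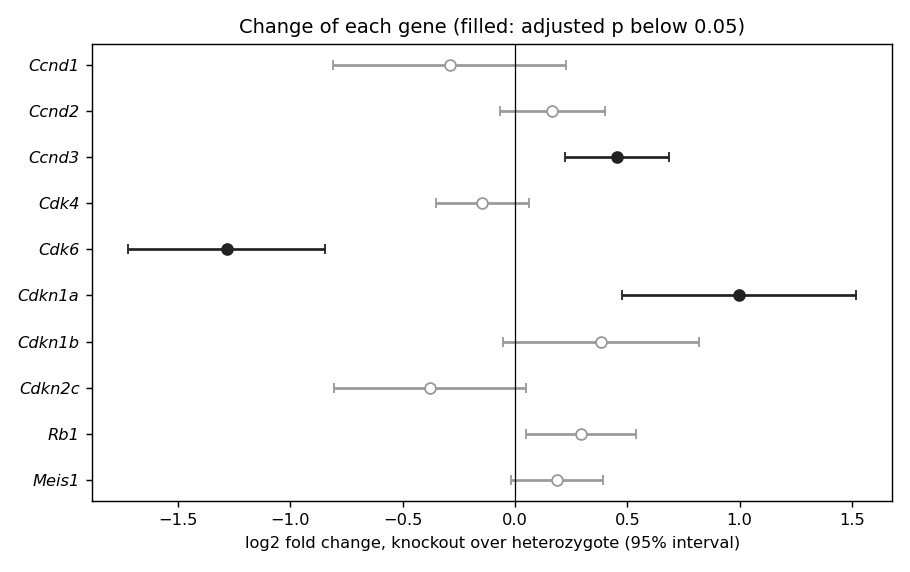
Log2 fold change of knockout over heterozygote (horizontal axis) for each of the 10 genes, with its 95% interval from edgeR; filled points have an adjusted p below 0.05. Cdk6 lies at -1.28, Ccnd3 at 0.46 and Cdkn1a at 1.00, and the other 7 points are open.

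The inhibitor genes did not move as a group. Cdkn1a (p21; chromosome 17, 29090986 to 29100722, plus strand) was at 45.9, 85.7, 74.1, 96.9 and 51.6 CPM in heterozygotes 1 to 5. In knockouts 1 to 5 it was at 157, 71.0, 134, 158 and 185 CPM. Knockout 2 fell within the heterozygote range and the other 4 knockouts lay above it. Knockouts averaged 141 ± 43.1 CPM and heterozygotes 70.8 ± 21.8 (SD, n = 5). The log2 difference was 0.998 ± 0.243 (SE; edgeR adjusted p 0.0104), with a 95% interval of 1.39 to 2.86-fold. The estimate was 0.87 to 1.17 when single animals were left out, called each time, and 1.18 with the endothelial covariate (adjusted p 0.0426).

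Cdkn1b (p27; chromosome 6, 134920401 to 134925525, plus strand) was the lowest of the 3 inhibitors, at 4.16, 6.63, 6.02, 5.77 and 5.02 CPM in heterozygotes 1 to 5 and 5.83, 6.34, 10.2, 7.49 and 5.94 CPM in knockouts 1 to 5. Knockouts 3 and 4 were above all heterozygotes and the others overlapped them. The ratio was 1.30 with a 95% interval of 0.965 to 1.76 (edgeR adjusted p 0.211), from 47 to 105 reads per animal. Cdkn2c (p18; chromosome 4, 109660876 to 109665372, minus strand) was at 9.66, 6.14, 10.1, 11.3 and 11.2 CPM in heterozygotes 1 to 5 and 6.04, 7.71, 5.76, 9.95 and 7.81 CPM in knockouts 1 to 5. Its groups overlapped through heterozygote 2 and knockout 4, and the ratio was 0.769 with a 95% interval of 0.572 to 1.03 (edgeR adjusted p 0.207).

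Rb1 (chromosome 14, 73195502 to 73325791, minus strand), whose protein the kinases act on, was at 22.9, 17.2, 20.3, 21.3 and 19.7 CPM in heterozygotes 1 to 5 and 27.7, 26.6, 24.2, 21.0 and 25.0 CPM in knockouts 1 to 5. Only knockout 4 lay within the heterozygote range. The ratio was 1.23 with a 95% interval of 1.03 to 1.45, and the edgeR adjusted p was 0.0892. With library totals alone as the scaling, Rb1 was called (log2 fold change 0.37, adjusted p 0.0322).

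Meis1 (chromosome 11, 18880428 to 19018969, minus strand) was at 46.8, 35.7, 37.7, 37.0 and 42.3 CPM in heterozygotes 1 to 5 and 42.4, 46.9, 48.1, 44.6 and 45.5 CPM in knockouts 1 to 5. The knockout values lay within the upper part of the heterozygote range or just above it. The ratio was 1.14 with a 95% interval of 0.987 to 1.31 (edgeR adjusted p 0.196). Related and partner homeobox genes gave 0 calls among 8 tested genes, with 0 also at an unadjusted p below 0.05 and 0 with DESeq2 and with voom. Of all 11870 tested genes, 18.9% were called and 3841 had an unadjusted p below 0.05. Hoxb13 had 0 reads in all 10 animals.

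Per exonic length, the 10 genes fell into an upper and a lower group in the heterozygote. Cdk4 was highest at 61.8 ± 7.11 CPM per kilobase, above Ccnd2 (45.1 ± 4.29), Ccnd3 (42.9 ± 7.16) and Cdkn1a (35.0 ± 10.8) (SD, n = 5). Neighbours from Ccnd2 to Cdkn1a overlapped in their ranges. Ccnd3 is understated on this scale through the bases shared with Bysl, so its place among these genes is not settled. A gap followed, to Meis1 at 11.6 ± 1.34, Cdkn2c at 8.76 ± 1.91, Ccnd1 at 7.89 ± 2.70, Cdk6 at 5.54 ± 0.982, Rb1 at 4.38 ± 0.456 and Cdkn1b at 2.30 ± 0.398 CPM per kilobase. In the knockout Cdkn1a had the highest printed mean, 69.6 ± 21.3 CPM per kilobase. Its range overlapped that of Ccnd3 (58.7 ± 1.91), which is understated, so the order of these 2 is not settled. Cdk4 (55.9 ± 4.19) and Ccnd2 (50.6 ± 7.04) followed with overlapping ranges. The lowest mean was that of Cdk6, 2.25 ± 0.668 CPM per kilobase, next to Cdkn1b at 2.97 ± 0.748.

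**Figure D4:**
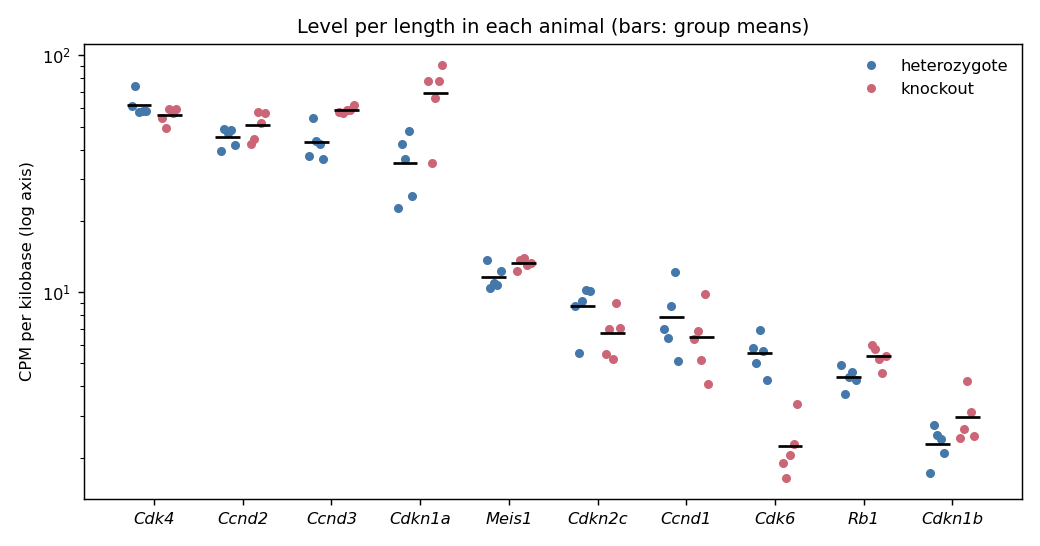
Level per exonic length in CPM per kilobase (vertical log axis) of the 10 genes in each animal, ordered by the heterozygote mean; blue points are heterozygotes, red points knockouts, and bars are group means. Cdkn1a has the highest mean (69.6) and Cdk6 the lowest (2.25) in the knockout. Ccnd3 is understated, since its length includes bases shared with Bysl.

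Other genes of the pathway were read from lists and are described by counts beside those over all genes, whose median log2 fold change was 0.0023. Of 20 genes of p53 and its targets, 7 were called higher and 1 lower, with a median log2 fold change of 0.28, against 10.2% higher and 8.64% lower over all tested genes. Eda2r, a TNF receptor superfamily member, averaged 10.5 ± 1.94 CPM in heterozygotes and 29.6 ± 2.61 in knockouts (SD, n = 5), a 2.82-fold rise (edgeR adjusted p 5.75e-06). In Eda2r every knockout (27.6 to 34.0 CPM) lay above every heterozygote (8.84 to 13.5). Zmat3, an RNA-binding protein gene, went from 2.72 ± 0.600 to 5.84 ± 1.01 CPM (1.13, adjusted p 0.00280), also without overlap. Bbc3, which encodes the apoptosis inducer PUMA, rose by 0.86 on the log2 scale (adjusted p 0.0280), a call lost in 4 of the 10 leave-one-animal-out fits and with the replicate block (adjusted p 0.0523). Perp, a membrane protein gene, was the gene called lower (-0.33, adjusted p 0.0115). With a filter of a mean of at least 5 CPM, 17 genes of the list were tested and the median was 0.05. With the endothelial covariate the median was 0.07, and of the 8 calls only those of Eda2r (1.42) and Zmat3 (1.09) were kept. Perp (adjusted p 0.135) and Bbc3 (0.356) were among the 6 lost, and Gadd45a, a growth-arrest gene not called without the covariate (-0.46, adjusted p 0.328), was called lower. Mdm2, named after its value was seen because its protein degrades p53, had a log2 fold change of 0.05 (adjusted p 0.702).

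S-phase genes driven by E2F lie downstream of the D cyclins. Of 22 tested, 2 were called lower and 0 higher, a count close to the 8.64% called lower over all tested genes, and all 22 estimates were below 0, with a median log2 fold change of -0.47. Mcm2, a subunit of the replicative helicase, was at 44.7 ± 4.39 CPM in the heterozygote and 24.7 ± 5.42 in the knockout (SD, n = 5; -0.85, SE 0.147, edgeR adjusted p 0.00109). Mcm2 did not overlap between the groups, at 15.6 to 29.2 CPM in knockouts against 41.5 to 52.2 CPM in heterozygotes. Cdc45, a helicase cofactor, was also called (-0.59, adjusted p 0.0310), but not in 6 of the 10 leave-one-animal-out fits. With the endothelial covariate 21 of the 22 estimates were below 0, the median was -0.34, and Mcm2 was the gene called (adjusted p 0.0258). Without heterozygote 4, 20 of the 22 were below 0, the fewest in any fit that tested all 22. With a mean of at least 5 CPM, all 15 tested estimates were below 0 and the median was -0.23.

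Cyclins and kinases that act after the D cyclins gave 1 call, lower, among 15 tested genes, also near the background share, with a median of -0.25. Ccne1 (cyclin E1) went from 3.52 ± 0.789 to 1.93 ± 0.232 CPM (SD, n = 5; -0.87, edgeR adjusted p 0.0175), with no overlap between the groups, and was not called with the endothelial covariate (-0.96, adjusted p 0.0651). Over all 11870 tested genes, 18.9% were called and 3841 were at an unadjusted p below 0.05. Pocket proteins and E2F or DP factors gave 0 calls among 11 (3 at an unadjusted p below 0.05, 0 with DESeq2 and with voom). E2f6, a repressive E2F and the most abundant of these, was at 122.7 ± 7.23 and 119.3 ± 12.1 CPM (SD, n = 5; edgeR adjusted p 0.804).

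Among the other inhibitor genes, Cdkn2a (p16 and p19ARF) had 0 reads in every animal, which allows a level of up to 0.119 to 0.371 CPM on library totals. Cdkn2b (p15) had 0 to 5 reads per heterozygote and 1 to 10 per knockout and was below the filter. Cdkn1c (p57) went from 12.5 ± 5.55 to 7.40 ± 1.11 CPM (SD, n = 5; -0.75, edgeR adjusted p 0.0440). The Cdkn1c call was lost in 7 of the 10 leave-one-animal-out fits. Without heterozygote 4, at 22.2 CPM and also the animal with the highest endothelial score, the log2 fold change was -0.44 (adjusted p 0.0852), and with the endothelial covariate it was -0.20 (adjusted p 0.707).

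Genes that control the turnover of D cyclins and inhibitors gave 2 calls among 14, in opposite directions, which is below the 18.9% called over all tested genes. Fbxo31, which encodes an F-box protein that directs cyclin D1 to degradation, fell from 125.4 ± 21.8 to 79.8 ± 9.45 CPM (SD, n = 5; -0.65, SE 0.128, edgeR adjusted p 0.00277). Every knockout (67.5 to 90.1 CPM) lay below every heterozygote (92.4 to 142), and Fbxo31 was called in all 10 leave-one-animal-out fits and with the endothelial covariate (-0.84). Ddb1, an adaptor of CUL4 ubiquitin ligases, rose from 313.7 ± 25.0 to 383 ± 21.5 CPM (0.29, adjusted p 0.0285). The Ddb1 call was lost in 5 of the 10 leave-one-animal-out fits, with the replicate block and with the endothelial covariate.

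**Figure D5:**
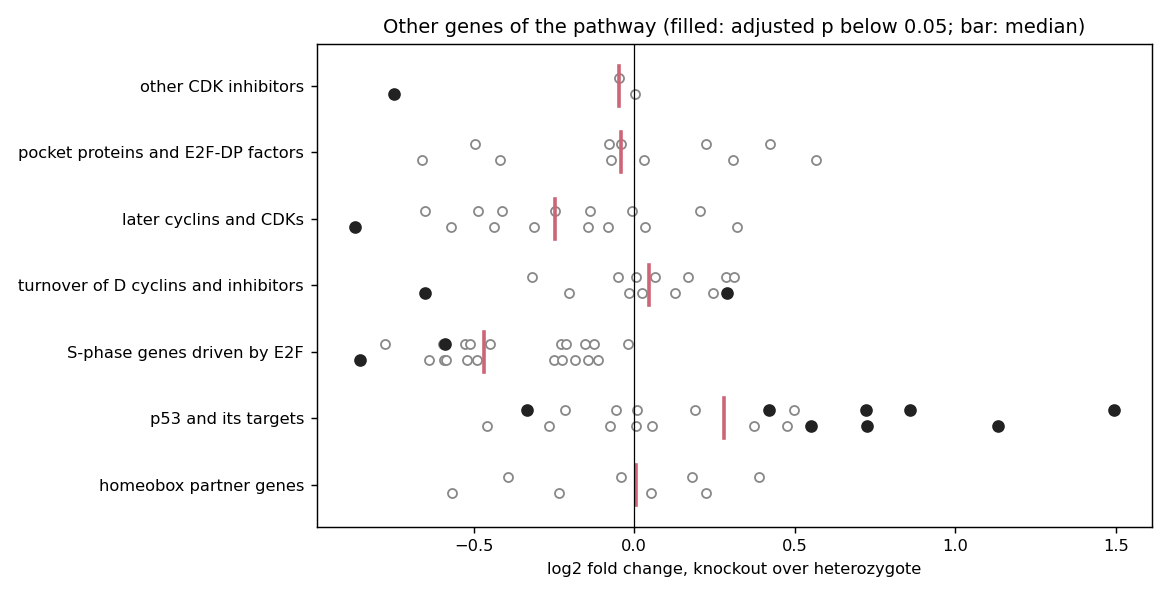
Log2 fold change of knockout over heterozygote (horizontal axis) for the tested genes of 7 pathway lists, 1 point per gene, filled where the adjusted p is below 0.05, with the list median as a bar. The median is 0.28 for p53 and its targets and -0.47 for S-phase genes, of which 2 are filled.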

How the data were processed

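Poly(A) RNA of sorted cardiomyocytes from 10 mice was sequenced after SMART-Seq amplification and Nextera XT library preparation, per the labels' protocols. The deposited table holds raw read counts for each gene. It was written by featureCounts 1.5.1 (4 threads, no other option), per the file headers, on the UCSC mm10 annotation of 2012. The submitters' processing notes name STAR 2.5.3a and Subread 1.5.2. Without a strand option, sense and antisense reads are not separated, and reads that overlap several genes are left out. Of 14 count columns, 10 match samples of this series, and the other 4 were not used.

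Genes were kept with edgeR's filterByExpr (minimum count 10, minimum total count 15), scaled with TMM and tested in edgeR 4.0.16 under R 4.3.3 with the quasi-likelihood F statistic, with genotype as the single term and all 10 samples in the fit. Benjamini-Hochberg adjustment ran over all 11870 tested genes, and genes with an adjusted p below 0.05 were called. SE is the log2 fold change divided by the square root of F, and 95% intervals use the t distribution at the test's degrees of freedom. CPM are computed on the TMM-scaled total of the tested genes; CPM per kilobase divides by the exonic length that the table gives. Alternatives used DESeq2 1.42.0 and limma 3.58.1 (voom). The endothelial score is the mean log2 CPM (prior count 1) of 12 markers. The Y-linked covariate separates libraries with Y-linked reads (3 heterozygote, 4 knockout) from those without (2 and 1). The procedure was tested on simulated data. The labels name separate biological replicates. Replicate pairs differed by more than sampling noise (chi-square 10.8 to 37.5 per degree of freedom). The members and lists were chosen with earlier results of these data known. Named genes are the 10 members, Actn2 and, on each list, the called genes (the 3 largest rises and falls where more than 6 were called) or, with 0 called, the most abundant gene; 1 gene so chosen is not reported here.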

Additional observations from a re-analysis of the deposited data

Results flagged for a closer look

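In 50 groups of 5 values, 3 had an animal whose gap to the nearest other exceeded 0.71 of the range of its group, and chance gives about 1 in 20. Cdk4 was at 100.1 CPM in heterozygote 2 against 81.9 in the next highest (gap 0.806 of the range). Without that animal the log2 fold change of Cdk4 was -0.07, and it was not called with or without it. Cdkn1c was at 22.2 CPM in heterozygote 4 against 11.8 in the next highest (gap 0.777). Heterozygote 1 had a total of 25237696 counts, and the second deepest of that group had 10309615 (gap 0.870), and the calls of Cdk6, Cdkn1a and Ccnd3 held without it.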

How the results depend on the processing

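Of 200 combinations of member and alternative, 197 kept their direction and side of the threshold. The exceptions were Ccnd1, which reversed (0.41), and Ccnd3, which lost its call, with the endothelial covariate, and Rb1, which gained one with library totals. Members called numbered 3 in every fit that left out 1 animal, and 2 to 4 otherwise. Calls over all genes fell to 1134 with the endothelial covariate and ranged from 1699 to 2258 when animals were left out. The endothelial score itself ran lower in the knockout group, so fits with that covariate do not separate it from genotype. The replicate number in the labels is not stated to mark a litter or batch; deviations of same-numbered animals correlated at -0.06 to 0.19, above 0.1 in 3 of 5 pairs, and 4 of 10 animals correlated best with their own number. With the replicate block 2182 genes and 3 members were called, with 3 calls for later cyclins and CDKs, 1 for turnover genes and 7 for p53 genes (Bbc3 lost). With the endothelial covariate the list counts were 0 for other CDK inhibitors, 0 for later cyclins, 1 for turnover, 1 for S-phase and 3 for p53 genes. With library totals they were 0, 2, 4, 1 and, for pocket proteins and E2F factors, 1. With voom they were 0 for other CDK inhibitors, 3 for later cyclins, 4 for turnover and 4 for S-phase genes; the Y-linked covariate gave 1 for pocket proteins and a mean of at least 5 CPM gave 0 for later cyclins, since Ccne1 was then not tested. Leaving out 1 animal gave 0 to 1 calls for other CDK inhibitors, 0 to 1 for pocket proteins, 1 to 2 for later cyclins, 1 to 3 for turnover, 1 to 4 for S-phase and 5 (without knockout 3) to 10 (without heterozygote 2) for p53 genes. E2f6 reversed with library totals (0.0398) and without knockout 5, with -0.0953 to 0.0075 over the fits that left out animals. The Cdk6 share, added after seeing the data, differed by -7.39 points without division by length, in place of -4.46. Genes with 3 reads or fewer, such as Cdkn2a, lie below what this depth can resolve.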
